A study of Mus musculus with 2 samples.

Results

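Endothelial cells are non-haematopoietic cells, yet a small number of them were captured with the CD45+ cells of mouse visceral adipose tissue. They were found here by their own transcripts. A cell was a member when it held at least 3 UMIs (unique molecular identifiers, 1 per captured transcript) of Cdh5, Egfl7 and Kdr together, fewer than 10 of the macrophage genes C1qa, C1qb and C1qc, at most 1 of the B cell gene Cd79a and fewer than 10 of the fibroblast genes Col1a1, Col3a1 and Dcn. The rule found 173 members among 25198 cells, 51 of 12474 in the NW library and 122 of 12724 in the ABX library. The 3 marker genes chose the members, so their levels describe the rule and are not a result.

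Both libraries came from wild type C57BL/6 mice of 15 weeks and from the visceral adipose depot labelled eWAT. NW mice drank normal water, and ABX mice drank water with a cocktail of ampicillin, vancomycin, streptomycin and colistin, which depletes the gut microbiota. Cells were enriched with CD45 microbeads, labelled with oligonucleotide-tagged antibodies (AbSeq) and captured on the BD Rhapsody platform. There was 1 library for each condition, and the number of mice in a library is not given in the sources used here, so treatment and library cannot be told apart and no test between conditions was possible. The sources speak of 1 capture cartridge and do not make clear whether both libraries shared it. All intervals are 95% intervals of counting error only.

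The endothelium lines every blood and lymph vessel and differs along the vascular tree. Arterial, capillary, venous and lymphatic cells each express their own genes, and venous cells are the main site where leukocytes leave the blood. In adipose tissue, capillary endothelium holds lipoprotein lipase at its surface through Gpihbp1 and carries fatty acids to adipocytes through Cd36 and Fabp4. CD45, encoded by Ptprc, is the common leukocyte antigen and is not made by endothelium.

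The members held 308326 gene UMIs in NW and 793212 in ABX, with a median of 5060 UMIs per member in NW (1122 to 16617) and 4843 in ABX (978 to 25100), against 5092 and 3837 in all other cells. Mitochondrial genes took a median of 6.00% of member UMIs in NW and 6.23% in ABX. The libraries shared 371 cell barcodes, where 355 would be shared if barcodes were drawn at random from 884736, and 1 NW and 3 ABX members had such a barcode. Scrublet, at the threshold it set in NW, marked 2.76% of NW and 2.55% of ABX cells as doublets, among them 3 members in each library. At its own threshold in ABX it marked 1 cell, so the NW threshold was used for both.

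Genes outside the rule gave the members an endothelial identity. Pecam1, the junctional adhesion receptor CD31, reached 1923 CPM (counts scaled to 1000000 gene UMIs) in NW and 2480 in ABX members, and 25.8 and 40.9 CPM in all other cells. Cldn5, the tight junction claudin of endothelium, reached 1067 and 888 CPM in members and 1.53 and 4.85 CPM elsewhere. Of the 22 genes in a list of endothelial surface and junction proteins, 21 had enough UMIs for a comparison with all other cells and 20 were at least 4-fold higher in members in both libraries. Over all genes, 895 of 13347 (6.71%) were that much higher and 1642 (12.3%) that much lower. These shares describe cells chosen by correlated genes and carry no test.

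Among genes with at least 500 UMIs in members, the 20 with the highest fold in the library of the smaller fold were led by Podxl, a sialomucin of the luminal surface, at 604-fold in NW and 359-fold in ABX. Ptprb, the endothelial phosphatase that acts on the Tie2 receptor, followed at 762-fold and 298-fold, and Sema3g, an arterial semaphorin, at 515-fold and 283-fold. Sox18, a transcription factor of vessel formation, stood at 687-fold and 236-fold. The water and glycerol channels Aqp1 and Aqp7, the lipase anchor Gpihbp1 and the lipase Mgll were also among the 20, as were Mmrn2, Rbp7, Adgrl4, Adgrf5, 8430408G22Rik, Tinagl1, Cldn5, Plvap, Cyyr1, Timp4, Esam and Eln. The fold was smaller in ABX for each of the 20, beside a higher level in the other cells of that library, for example 2.62 CPM in NW and 7.22 CPM in ABX for Ptprb.

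Fatty acid handling was the most abundant programme named. A list of 20 genes of fatty acid uptake summed to 47920 CPM in NW and 50210 CPM in ABX members, against 4200 and 3361 CPM in all other cells. Fabp4, the cytosolic fatty acid carrier, alone took 22060 and 26290 CPM, and Cd36, the fatty acid translocase, 16350 and 15620 CPM. Other cells held 111 and 216 CPM of Fabp4 but 2783 and 2125 CPM of Cd36, so the fold over other cells was far smaller for Cd36 (5.87 in NW and 7.35 in ABX) than for Fabp4 (198 and 122). Pparg, the nuclear receptor that drives lipid genes, stood at 561 and 431 CPM in members and at 22.6 and 26.1 CPM elsewhere.

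Members near the limit of the rule were less certain. Of the cells with exactly 3 marker UMIs, 4 of 5 in NW and 3 of 5 in ABX held Pecam1 or Cldn5, and of the 7 cells in each library with 2 marker UMIs, left out by the rule, 3 did. Of the 36 NW and 79 ABX members with 10 or more marker UMIs, all did. The macrophage, B cell and fibroblast limits took out 17 of 68 NW and 38 of 160 ABX cells that had the 3 marker UMIs. Most of these, 16 and 28, were over the macrophage limit.

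The members were not 1 cell type. Clustering of the 173 cells gave 5 clusters, all with cells of both libraries. Cluster 1 (79 cells, 25 NW and 54 ABX) was led by Car4, the carbonic anhydrase of the capillary surface, with Lpl and Rgcc, but also by the adipocyte genes Cfd, Cidec and Adipoq. The capillary and adipocyte lists each held 3 of its 10 leading genes. The other 4, Car3, Cyp2e1, Scd1 and Pck1, which fat tissue also expresses, were in neither. The capillary list summed to 46300 CPM there against 19320 CPM in the remaining members, and the adipocyte list to 3523 against 317 CPM. It is therefore called the Car4 cluster and given no cell type name. Cluster 2 (36 cells, 14 and 22) was arterial-like, led by Gja5, a gap junction protein of arteries, with Sema3g and Stmn2. Cluster 3 (29 cells, 4 and 25) was venous-like, led by the prostaglandin carrier Slco2a1, Lrg1, Plvap and Selp (P-selectin). Of these 4, Lrg1 and Selp were on the venous list, which summed to 6695 CPM there against 1663 CPM in the remaining members.

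The other two clusters went against the endothelial name. Cluster 4 (18 cells, 2 NW and 16 ABX) was pericyte and smooth muscle-like, led by Acta2, Steap4, Rgs5 and Notch3, with a median of 10475 UMIs per cell. It kept Pecam1 and Kdr, yet the 3 rule genes reached 1147 CPM there against 4383 CPM in the Car4 cluster, and a list of 12 mural cell genes summed to 7524 CPM against 341 CPM in the remaining members. Cluster 5 (11 cells, 6 and 5) was led by Plac8, Siglech, Mpeg1 and Bcl11a, with Flt3. Siglech is known from plasmacytoid dendritic cells, but only 4 of the 11 cells held it, 3 NW and 1 ABX, so the cluster is given no cell type name. Ptprc was present in 10 of these 11 cells at 755 CPM, and the rule genes were lowest there (606 CPM). The comparisons below are also given for clusters 1 to 3, which held 43 NW and 101 ABX cells.

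**Figure D1:**
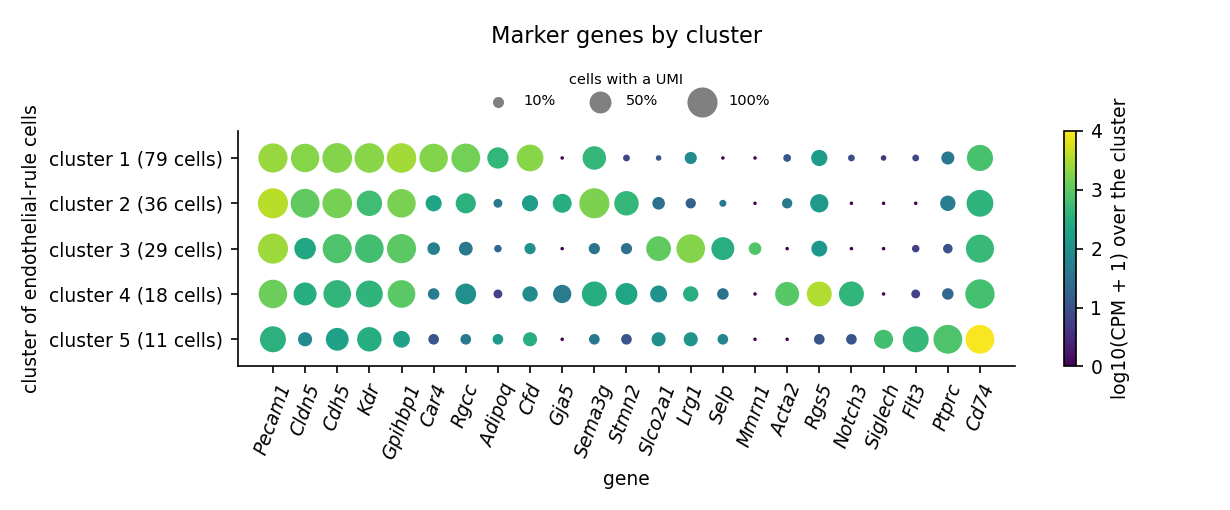
Marker genes (x axis) in the 5 clusters of the 173 cells (y axis), with dot area for the percent of cells that held a UMI and colour for log10(CPM + 1) over the cluster. Pecam1 is present in all 5 rows, Car4 stands out in cluster 1, Gja5 and Sema3g in cluster 2, Slco2a1 and Lrg1 in cluster 3, Rgs5 and Acta2 in cluster 4, and Siglech and Ptprc in cluster 5.

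Classes by summed markers crossed these clusters. Each cell was given the highest of its arterial, venous and lymphatic sums when that sum was at least 2 UMIs. This placed 27 of 51 NW members (52.9%, 38.5 to 67.1) and 53 of 122 ABX members (43.4%, 34.5 to 52.7) in the arterial class and 16 (31.4%, 19.1 to 45.9) and 44 (36.1%, 27.6 to 45.3) in the venous class. The intervals of the 2 libraries overlapped for both. Cluster 1 held 28 arterial-class and 31 venous-class cells, and 3 arterial-class, 11 venous-class and 13 unplaced cells lay at the limit, so the classes are ranges of a score and not types.

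A few lymphatic cells were found, all in ABX. They numbered 4 of 122 ABX members (3.28%, 0.900 to 8.18) and 0 of 51 in NW, which allows a share of up to 6.98%. All 4 lay in cluster 3. Each held Mmrn1, with 24 to 65 UMIs, the hyaluronan receptor Lyve1, with 8 to 58 UMIs, and the chemokine Ccl21a, and 3 of them held Prox1, the transcription factor that sets lymphatic identity. The class was set by the sum of Prox1, Mmrn1, Flt4, Ccl21a, Reln and Nts, so counts of these genes describe the rule. All 166 Mmrn1 UMIs of the ABX members were in these cells. Lyve1 lay outside the class rule, and 159 of its 164 UMIs in the ABX members were in these cells. Of the 12 lymphatic genes, Mmrn1, Lyve1, Fgl2 and Maf had 100 UMIs for a comparison between libraries. All 4 were at least 1.5-fold higher in ABX, beside 7.99% of all genes tested. The list summed to 1109 CPM in ABX against 237 CPM in NW. For Mmrn1, a gene of the class rule, and for Lyve1 this restates the 4 cells of ABX and is no separate result. Fgl2 was at 32.4 and 134 CPM and Maf, a transcription factor also found in other cells, at 58.4 and 137 CPM. The counting limit in NW is above the share in ABX, so a difference in lymphatic cells was not detectable at this depth.

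The share of endothelial cells was higher in ABX. Members were 0.409% of NW cells (0.305 to 0.537) and 0.959% of ABX cells (0.797 to 1.14), a ratio of 2.35, or 0.370 on the log10 scale (0.229 to 0.512). The intervals did not overlap, but with 1 library for each condition the variation between libraries of a condition is not known. The ratio was 0.362 without clusters 4 and 5. It was 0.358 when each cell was thinned to 1000 UMIs, which brought the expected shares to 0.233% and 0.532%. Across all 10 alternatives it lay between 0.339 and 0.492. A share of sorted cells also depends on how many leukocytes were recovered beside them. Cells with fibroblast genes and fewer than 3 endothelial UMIs, another population that CD45 beads should not keep, numbered 21 in NW and 113 in ABX. The part of the CD45 selection in either number was not tested.

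**Figure D2:**
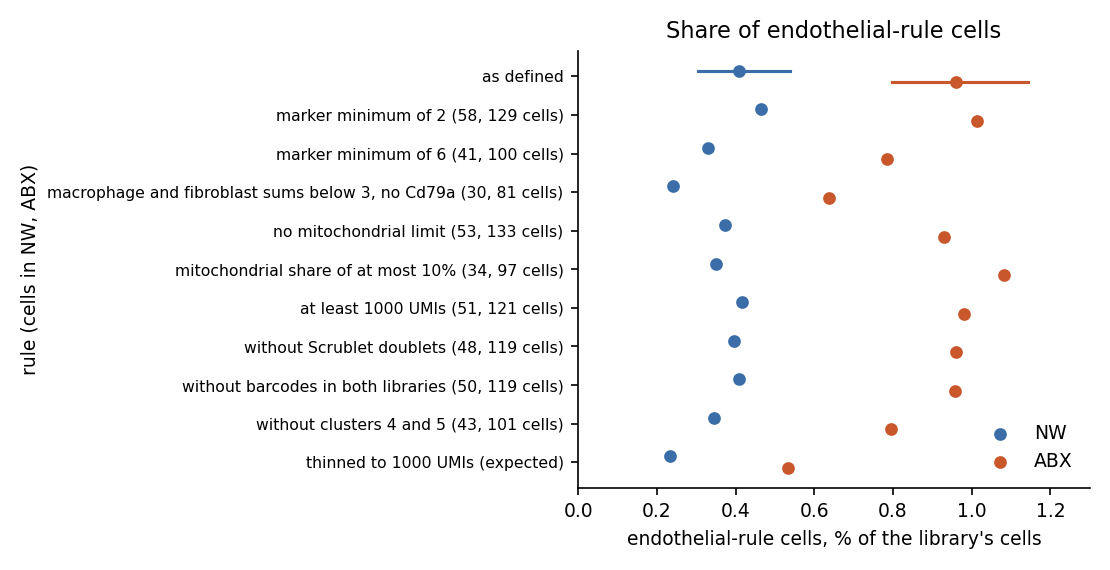
Percent of each library's cells that met the endothelial rule (x axis) under the rule as defined and 10 alternatives (y axis, with the number of cells in NW and ABX), with bars for the exact 95% interval of the first row. The ABX point lies to the right of the NW point in every row, at 0.959% against 0.409% as defined.

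Ptprc did not mark these cells. A Ptprc UMI was seen in 10 of 51 NW members (19.6%, 9.82 to 33.1) and 24 of 122 ABX members (19.7%, 13.03 to 27.8), against 80.2% and 76.0% of all other cells. In the cells with fibroblast genes, which should also lack Ptprc, it was seen in 47.6% and 24.8%, at median depths of 10488 and 8828 UMIs. Thinned to 1000 UMIs, the shares were 7.26% and 5.30% in members, 8.06% and 5.75% in the cells with fibroblast genes, and 42.3% and 44.2% in all other cells. The share in members was therefore no higher than in the cells with fibroblast genes. Those cells also held common leukocyte genes, at 2434 CPM in NW and 1419 CPM in ABX, against 1781 and 785 CPM in members. They are therefore not a control free of leukocyte RNA, and whether Ptprc in members is background was not tested. Cluster 5 stood apart, with Ptprc in 10 of 11 cells. Without clusters 4 and 5 the share was 9.30% in NW and 17.8% in ABX.

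Members carried far more of the antibodies against T and NK cell antigens than other cells did. The TCR-beta antibody had a median of 285 UMIs in NW and 253 in ABX members, against 16 and 14 in all other cells. The CD8b antibody had 156 and 119 against 10 and 8, NK-1.1 had 207 and 165 against 26 and 21, and CD25 had 86 and 68.5 against 10 and 8. CD3 followed at 67 and 61 against 9 and 7, and CD69 at 60 and 56 against 8 and 6. CD44, an antigen of activated leukocytes, went the other way, with 77 and 48.5 in members and 101 and 86 in other cells.

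The matching transcripts were few. Trbc1, Trbc2 and Trac together had 4 UMIs in NW and 20 in ABX members, in 7.84% and 12.3% of them, against 33.0% and 36.6% of all other cells. Il2ra, for CD25, had 5 and 20 UMIs, in 7.84% and 7.38% of members against 16.9% and 18.3%. Cd3e had 2 UMIs in NW and 8 in ABX members, Cd8b1 had 0 and 17, Cd69 had 1 and 3 and Cd4 had 1 and 2. Cd8b1 was rare in all other cells too, in 1.63% and 2.62% of them. Members without Ptprc kept high counts, with a TCR-beta median of 285 in 41 NW cells and 269 in 98 ABX cells, against 262 in the 10 NW cells and 183 in the 24 ABX cells with it. For CD3, CD25, CD69, NK-1.1 and CD44 the NW members without Ptprc were lower than those with it, for example 67 against 108 for CD3 and 49 against 254.5 for CD44, whereas in ABX CD3 was at 65 against 53 and CD44 at 41.5 against 68.5. Clusters 1 to 4 had TCR-beta medians of 292, 249, 261 and 315, and cluster 5 had 11, close to all other cells. Cells with fibroblast genes had medians of 27 in NW and 15 in ABX. Binding of antibody other than through its antigen was not tested, and these counts are not read as T cell antigens on the cells.

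Many of the members were among the cells with the highest counts. Cells with at least 100 UMIs of both TCR-beta and CD8b antibody numbered 423 in NW and 483 in ABX, which included 31 of 51 NW members (60.8%) and 66 of 122 ABX members (54.1%). Of the others with such counts, 27.6% of 392 in NW and 33.6% of 417 in ABX held a Cd3 or Trac UMI.

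**Figure D3:**
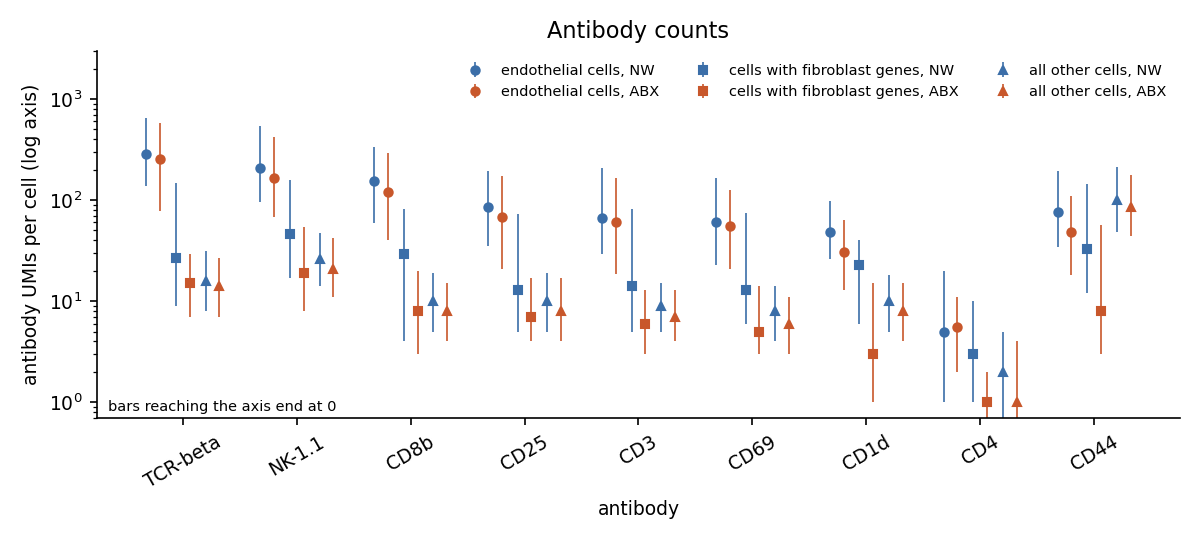
Antibody UMIs per cell on a log axis for 9 antibodies (x axis), with points for medians and bars for the quartiles, in endothelial cells (circles), cells with fibroblast genes (squares) and all other cells (triangles), NW in blue and ABX in orange. Endothelial cells sit above all other cells for every antibody shown but CD44, for example at 285 and 253 against 16 and 14 for TCR-beta.

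Members of the 2 libraries were compared by summing counts over members and dividing by their total. Of 2103 genes with at least 100 UMIs, 168 (7.99%) were at least 1.5-fold higher in ABX and 100 (4.76%) at least 1.5-fold lower. Counts of cells are few, a single cell can hold much of a gene's UMIs, and the clusters did not have the same weight in both libraries, so values within clusters are given where they turn the direction or where few cells held a gene. Without clusters 4 and 5 the counts were 137 and 83 of 1496 genes, and within the Car4 cluster 41 and 19 of 580.

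Among genes that reached 200 UMIs summed over the members, Cyp1a1 and Cytl1 had none in NW, and Cyp1a1 was the more widely held. Cyp1a1 encodes a monooxygenase that is the classical target of the aryl hydrocarbon receptor (AhR), a sensor of dietary and microbial ligands. The gene lies on chromosome 9 (57687928 to 57703824, plus strand, GRCm38). No UMI of it was seen in the 51 NW members, and 270 UMIs were seen in 34 of the 122 ABX members (27.9%, 20.1 to 36.7). Its level was 340.4 CPM in ABX, at least 34.98-fold higher than 3 counts over the NW members would give. The 34 cells held 1 to 36 UMIs with a median of 4, and 20 of them held 3 or more, so no single cell made the difference and the highest gave 13.3% of the UMIs.

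Cyp1a1 was spread over all clusters of the ABX library. It was seen in 22 of 54 cells of the Car4 cluster (40.7%, 27.6 to 55.0) at 687 CPM, in 4 of 22 arterial-like cells at 144 CPM and in 4 of 25 venous-like cells at 394 CPM. Clusters 4 and 5 had it in 3 and 1 cells, with 4 and 2 UMIs. None of the 25 NW cells in the Car4 cluster had a UMI, which allows a share of up to 13.7% of cells with a UMI. Thinned to 1000 UMIs, 28.3% of the ABX cells in that cluster kept one.

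Cells outside the rule showed the same order. The cells with 3 endothelial UMIs that were left out by a macrophage, Cd79a or fibroblast limit had Cyp1a1 in 0 of 17 in NW and in 7 of 38 in ABX (18.4%, 7.74 to 34.3), with 115 UMIs. Cells with fibroblast genes had none in 21 and 113 cells. Cells with macrophage genes had it in 1 of 6182 in NW and in 16 of 5023 in ABX (0.319%, 0.182 to 0.517), with at most 2 UMIs in a cell. The share in ABX endothelial cells was above that in both populations of the same library.

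Other AhR genes were lower in count. This set of 8 was chosen after the Cyp1a1 values were seen. Nqo1, a quinone reductase that AhR and Nrf2 both induce, had 9 UMIs in 9 of 51 NW members (17.6%, 8.40 to 30.9) and 73 in 33 of 122 ABX members (27.0%, 19.4 to 35.8), or 29.2 and 92.0 CPM. Cyp1b1 had 1 and 20 UMIs and Ahrr 0 and 1, both too few to compare. Ahr itself stood at 51.9 and 31.5 CPM, its partner Arnt at 29.2 and 37.8 CPM and Tiparp at 45.4 and 37.8 CPM. Aldh3a1 was at 0 in both.

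**Figure D4:**
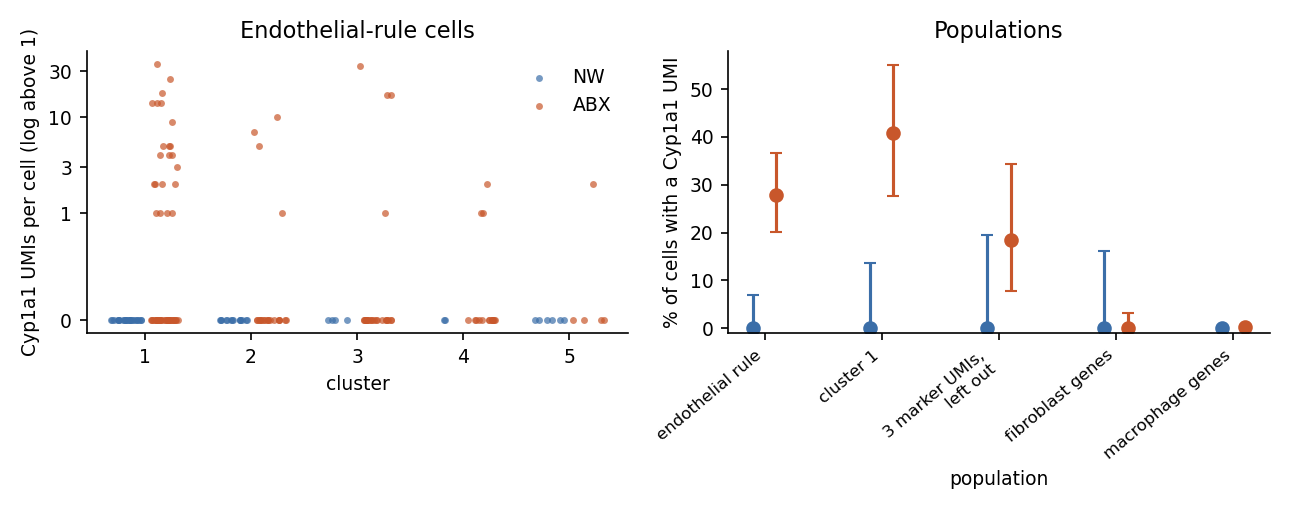
Left, Cyp1a1 UMIs per endothelial-rule cell (y axis, logarithmic above 1) by cluster, NW in blue and ABX in orange. Right, percent of cells with a Cyp1a1 UMI and its exact 95% interval in 5 populations, where the ABX endothelial cells stand at 27.9% and cluster 1 at 40.7%, and every NW endothelial cell is at 0.

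Venous genes were higher in ABX, beside a venous-like cluster that held 25 of its 29 cells from that library. Of the 12 venous genes, 7 had 100 UMIs, and 5 of these were at least 1.5-fold higher and none lower, with a median log2 ratio of 0.76 against 0.00 over all 2103 genes. Lrg1, a secreted glycoprotein of venules, was at 172 CPM in NW and 543 CPM in ABX (log2 ratio 1.66, 1.246 to 2.10). Vwf, which tethers platelets, was at 77.8 and 189 CPM (1.28, 0.65 to 1.97). Vcam1, the adhesion receptor of leukocyte integrins, had 3 UMIs in NW and 100 in ABX (3.70, 2.11 to 6.00), in 5.88% and 22.1% of members. Icam1, another such receptor, was at 97.3 and 165 CPM (0.76, 0.18 to 1.39), and Nr2f2, the factor that sets venous identity, at 234 and 381 CPM (0.71, 0.33 to 1.097).

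The venous-like cluster held most of the Lrg1, Vwf, Icam1 and Nr2f2 UMIs, and levels also differed within clusters. Lrg1 was at 1175 CPM in the 4 NW cells and 1924 CPM in the 25 ABX cells of cluster 3. In the Car4 cluster it was at 27.6 and 104 CPM, held by only 3 NW and 7 ABX cells. Slco2a1, the prostaglandin carrier that leads cluster 3, was at 42.2 CPM in NW and 314 CPM in ABX (2.90, 2.10 to 3.83) and at 92.7 and 1245 CPM within cluster 3. With 4 cells in NW this last pair rests on 3 cells that held the gene. With every cluster given the same weight in both libraries, the log2 ratio was 2.96 for Slco2a1, 0.89 for Lrg1, 0.73 for Vwf, 3.11 for Vcam1 and 0.32 for Icam1, all still higher in ABX, and -0.07 for Nr2f2. In NW these weighted values take cluster 3 from 4 cells and cluster 4 from 2 cells, and the 4 lymphatic cells of ABX lie in cluster 3. A difference in level apart from cell mix was therefore not tested. Within the Car4 cluster alone Icam1, with 11 UMIs there, was at -0.40 and Nr2f2 at -1.099.

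Adhesion genes were mixed. Of 24 genes of leukocyte adhesion and recruitment, 9 were tested, and 4 were higher and 1 lower, but the list's sum was lower in ABX, at 3989 and 3554 CPM (-0.17, -0.26 to -0.069). Ackr3, a scavenger of Cxcl12, was at 38.9 CPM in NW and 143 CPM in ABX (1.87, 1.01 to 2.87), with 29.2% of its ABX UMIs in 1 cell, and at -1.52 within the Car4 cluster. Its ligand Cxcl12, a chemokine that retains leukocytes, was the member that was lower, at 2426 and 1456 CPM (-0.74, -0.87 to -0.60). Cxcl12 fell by more than the list's sum did, so the lower sum rests on this gene and not on the rest of the list. Of 19 genes of shear stress and vessel tone, 12 were tested, 5 were higher and none lower, beside 7.99% and 4.76% of all genes tested. Thbd, the anticoagulant thrombomodulin, was at 292 and 512 CPM (0.81, 0.48 to 1.16), and Edn1, the constrictor endothelin 1, at 104 and 202 CPM (0.96, 0.40 to 1.55). Plat and Calcrl were the remaining members beside Vwf. In the venous-like cluster, with 4 NW and 25 ABX cells, Vwf reached 516 CPM and Calcrl 376 CPM, against 38.0 CPM of Calcrl in the remaining members. A difference in these genes apart from cell mix was not tested. Klf2, the flow-induced factor, was at 892 and 1041 CPM and Nos3 at 175 and 223 CPM, neither by 1.5-fold.

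Cxcl12 was lower in ABX within every cluster too, and Car4 within the Car4 and arterial-like clusters. Of 12 capillary genes, 11 were tested, and 1 was higher (Aqp1) and 2 lower (Car4 and Cxcl12), with a median log2 ratio of -0.34. Car4 was at 963 CPM in NW and 538 CPM in ABX (-0.84, -1.06 to -0.62). In the Car4 cluster alone it was at 2309 and 1598 CPM (-0.53). In the arterial-like cluster it was at 570 and 44.0 CPM, held by 5 NW and 4 ABX cells. Clusters 3 and 4, with 4 and 2 NW cells, went the other way, at 0 CPM in NW and 62.8 and 52.5 CPM in ABX. Cxcl12 was at 4001 and 2684 CPM in the Car4 cluster (-0.58) and at 3342 and 1922 CPM in the arterial-like cluster. Cells with macrophage genes held at most 62.1 CPM of Cxcl12. The lipid uptake members of the group, Gpihbp1, Cd36 and Lpl, stood at -0.09, -0.07 and -0.34.

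Aqp1 and Plvap were higher in ABX, and both had their highest level in the venous-like cluster, 7076 and 3311 CPM. Aqp1 was at 1437 and 2428 CPM over all members (0.76, 0.61 to 0.91). Plvap, the diaphragm protein of fenestrae, was at 516 and 975 CPM (0.92, 0.67 to 1.17). Emcn, an endothelial sialomucin, was at 97.3 and 238 CPM (1.29, 0.73 to 1.90), the other of the 2 surface genes in the endothelial list that were higher. None of the 21 was lower, and the list's median was 0.05. Of 13 endothelial transcription factors only Nr2f2 was past 1.5-fold, and of 7 genes of the VEGF and angiopoietin system and 15 of fatty acid uptake none was.

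Several of the highest genes rested on few cells, while Prss23, Timp2 and Igfbp4 were held by 50, 50 and 58 ABX members. Cytl1, a small secreted protein, had 0 UMIs in NW and 259 in ABX, but 84.2% of them were in 1 cell and 6 cells held it. Mgp, an inhibitor of BMP signalling and calcification, was at 87.6 and 352 CPM (2.01), with 43.0% of its ABX UMIs in 1 cell and 2 NW cells with any. Mt2, a metallothionein, was at 45.4 and 262 CPM (2.53, 1.75 to 3.43), in 13.7% and 36.9% of members, with 32.7% of ABX UMIs in 1 cell. Prss23, a serine protease of valve endothelium, was at 114 and 523 CPM (2.20, 1.71 to 2.75) in 17.6% and 41.0% of members. It was highest in the venous-like cluster (4 NW and 25 ABX cells), at 1432 CPM against 171 CPM in the remaining members. Timp2, Igfbp4 and Igfbp5 were higher by 1.70, 1.51 and 1.41 on the log2 scale, with Timp2 at -0.20 within the Car4 cluster. Igfbp4 was present in 29.4% and 47.5% of members, with a log2 ratio of 1.256 within the Car4 cluster. Igfbp4 and Igfbp5 were highest in cluster 4, at 882 and 719 CPM, which held 2 NW and 16 ABX cells. For Igfbp5, 74.1% of the NW UMIs were in 1 cell. It was lower in ABX within cluster 4 (931 and 688 CPM) and cluster 2 (25.3 and 12.6 CPM), and higher within clusters 1, 3 and 5. Igfbp3 was at 87.6 and 233 CPM (1.41) and Dll1, a Notch ligand, at 42.2 and 121 CPM (1.52).

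Smaller lists gave single genes. Of the 11 matrix genes tested, 1 was higher, beside 7.99% of all genes. This was Col18a1, at 87.6 and 189 CPM (1.11) over all members and at -1.79 within the Car4 cluster. Of 15 genes induced by tissue dissociation, 2 were higher, Egr1 at 0.91 and Fosb at 1.02, and the median over the 15 was 0.16. Fosb was at 0.031 without clusters 4 and 5 and at -1.79 within the Car4 cluster. None of the 6 tested genes of MHC class I was past 1.5-fold, and of 5 interferon-stimulated genes Bst2 was lower, at 198 and 99.6 CPM (-0.99, -1.49 to -0.48). Of 6 arterial genes Mgp was higher, of 11 genes of Notch and BMP signalling Dll1 was, and the median log2 ratios were -0.29 and -0.18. None of the 3 tip cell and 2 proliferation genes tested was past 1.5-fold.

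Leukocyte genes were among the lowest in ABX. Of the gene lists, only that of haemoglobin genes, given below, had a lower median log2 ratio (-2.67). Of 10 common leukocyte genes, 7 were tested and all 7 were lower, with a median log2 ratio of -1.21, and their sum was 1781 CPM in NW and 785 CPM in ABX. Tyrobp, an adaptor of myeloid receptors, was at 289 and 97.1 CPM (-1.57, -2.03 to -1.12), and Coro1a, Laptm5, Fcer1g, Lcp1, Cd52 and Ptprc were the others. Lsp1, a leukocyte actin-binding protein, was at 344 and 136 CPM (-1.34). The MHC class II list summed to 6250 and 3364 CPM, with Cd74, the invariant chain, at 2251 and 997 CPM (-1.17, -1.32 to -1.03) and H2-Aa at 1557 and 845 CPM (-0.88). H2-Ab1 was at 1349 and 811 CPM (-0.73).

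Cluster 5 held most of these transcripts. It took 6 of 51 NW members and 5 of 122 ABX members and held 27580 CPM of MHC class II genes and 7453 CPM of leukocyte genes, against 1818 and 422 CPM in the remaining members. Cluster 4, at 1871 and 311 CPM, was close to the rest. Without clusters 4 and 5 the leukocyte sum was 432 CPM in NW and 455 CPM in ABX, and the MHC class II sum was 1550 and 1902 CPM. There the log2 ratio of Cd74 was 0.43, that of H2-Aa 0.33, that of H2-Ab1 0.13, that of Lsp1 0.38, that of Ptprc 0.73 and that of H2afy, a variant histone gene that was at -0.81 over all members, 0.08. Others stayed below 0 there, with Coro1a at -0.48, Lcp1 at -0.49, Tyrobp at -0.11 and Fcer1g at -0.14, and Lsp1 was at -1.20 within the Car4 cluster.

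Retnla, a product of macrophages, was lower in every cluster. It was at 389 CPM in NW and 158 CPM in ABX members (-1.30, -1.68 to -0.93), in 82.4% and 52.5% of them, and at 469 and 136 CPM in the Car4 cluster. Cells with macrophage genes held 10090 and 6231 CPM. Cells below the macrophage, fibroblast and endothelial limits held 619 and 356 CPM, in 80.3% and 52.1% of cells. The share in members was close to that in the cells below these limits. Those cells still held Lyz2, a gene of the macrophage list, at 1118 and 738 CPM. Whether Retnla in members is background was not tested.

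**Figure D5:**
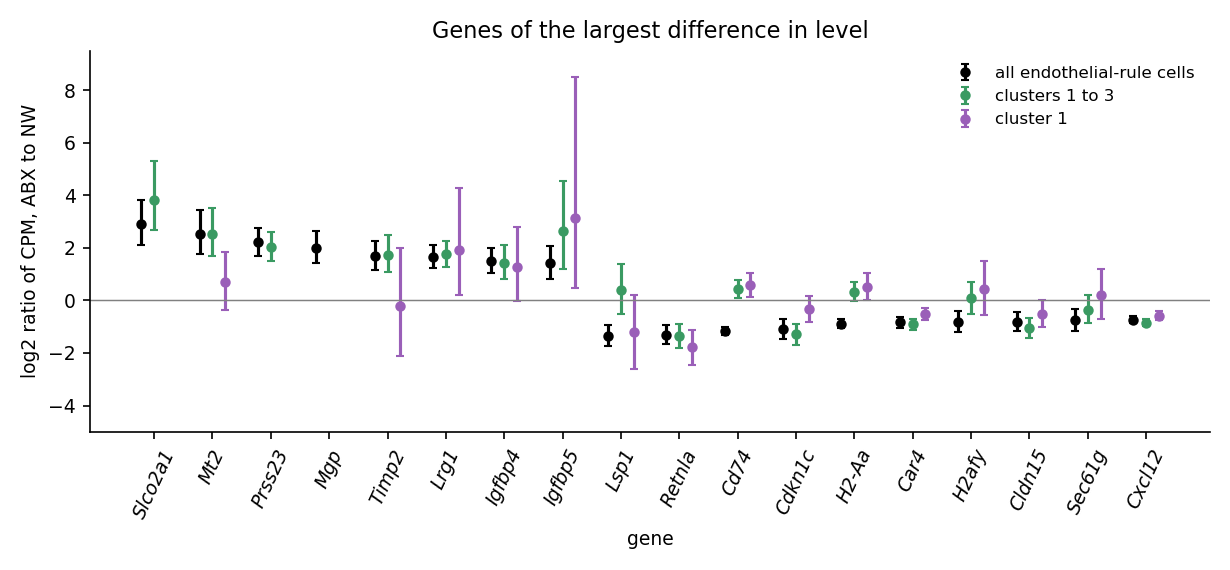
Log2 ratio of CPM, ABX to NW (y axis), with the 95% interval of counting error, for the 18 genes of the largest difference with UMIs in both libraries, over all endothelial-rule cells (black), clusters 1 to 3 (green) and cluster 1 (purple), with no point where the NW cells held no UMI of the gene. Cd74 and H2-Aa lie below 0 in all cells and above 0 in clusters 1 to 3, while Cxcl12, Car4 and Retnla lie below 0 in all 3 sets.

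Genes of neighbouring cell types were mixed. Of 12 pericyte and smooth muscle genes, 4 were tested and all 4 were higher in ABX, with sums of 924 and 1891 CPM, beside 2 NW and 16 ABX cells in cluster 4. Without clusters 4 and 5 the sums were 241 and 417 CPM, and the log2 ratio of Acta2 was -0.56, against 1.47 over all members. Adipocyte genes summed to 1067 CPM in NW and 1478 CPM in ABX members against 50.01 and 67.2 CPM in all other cells, and 7 of 7 tested were at least 4-fold higher in members in both libraries. They were concentrated in the Car4 cluster, at 3523 CPM against 317 CPM in the remaining members. Cfd, the adipokine adipsin, was the 1 of 3 that was higher in ABX, at 525 and 817 CPM (0.64, 0.39 to 0.89).

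The remaining lists were low or rested on few cells. Haemoglobin genes were lower in ABX, with sums of 1242 and 172 CPM, and Hba-a1, Hba-a2 and Hbb-bs were held by 2, 1 and 2 NW cells. Without the highest cell of each library, Hba-a1 was at 2.60 and Hbb-bs at 1.604 on the log2 scale. Fibroblast genes outside the rule summed to 318 and 427 CPM against 8918 and 20960 CPM in the cells with fibroblast genes. T and NK cell genes summed to 77.8 and 111 CPM and none had 100 UMIs, and no UMI of the Schwann cell list was seen.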

How the data were processed

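Single-cell RNA and antibody libraries of CD45+ cells were made from visceral adipose tissue, 1 for each condition. The deposited values are raw UMI counts of each gene and antibody per cell barcode, which the authors produced with the BD WTA Rhapsody Analysis Pipeline 1.8, and they were not normalized. The submitters' processing notes name R 3.6.0, Seurat 3.0.1 and mm10. The files hold 10 antibodies and the methods list 8. 1 of them is not reported here.

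Cells with at least 500 gene UMIs, at least 200 genes and at most 25% mitochondrial UMIs were kept, as in the study. The members, the gene lists and the rules were chosen with earlier results of these data known. Ratios are ABX to NW of CPM summed over members, with exact Poisson intervals, and shares carry Clopper-Pearson intervals (SciPy 1.17.1). Genes needed 100 UMIs over both libraries for a ratio and 1.5-fold to be counted. No p-value was computed, since cells of 1 library are not replicates. Members were clustered with scanpy 1.11.5 (2000 variable genes, 20 components, 15 neighbours, Leiden resolution 0.5), and a cluster was named only from the marker lists. Doublets were called with Scrublet. Thinning gives the expected share at 1000 UMIs per cell. A fold against 0 counts uses 3 counts.

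The genes named are those of the lists past 1.5-fold, the 10 highest and 10 lowest ratios with at least 200 UMIs, and the 20 that lead over other cells. The AhR genes and other genes outside this rule were chosen after their values were seen. Coordinates are from GENCODE M21 on GRCm38. The ratio and interval code was tested on simulated data.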

Additional observations from a re-analysis of the deposited data

Results flagged for a closer look

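Barcodes outside the quality limits held endothelial transcripts. Of 5061 ABX barcodes that were left out, 13 met the endothelial marker rule, all of them for their mitochondrial share, against 2 of 5188 in NW. This was noted because it lies above 3 counts in data that no comparison used. The ratio of shares with these barcodes kept is 0.396 on the log10 scale.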

How the results depend on the processing

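The share of endothelial cells kept its direction and stayed within its interval under all 10 alternatives, from 0.339 to 0.492 on the log10 scale. Scaling without mitochondrial and ribosomal protein genes or by the median ratio moved none of 55 named genes outside its interval. The Ptprc share was 7.26% in NW and 5.30% in ABX after thinning, 9.30% in NW without clusters 4 and 5, and 12.3% in ABX with macrophage and fibroblast sums below 3 and no Cd79a. Genes higher and lower in ABX numbered 65 and 27 under that stricter rule, which left fewer cells, 41 and 19 in cluster 1 alone, and 1883 and 1559, 456 and 335, or 64 and 22 with at least 10, 50 or 200 UMIs per gene.

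Some named genes changed sign, and the cause was not tested. Under the stricter rule the log2 ratios were -0.14 for Mgp, 0.083 for Cdkn1c, 0.20 for H2-Aa, 0.74 for H2-Ab1, 0.34 for Cd52 and -0.53 for Rgs5. Among members without Ptprc they were 0.26 for Cd74, 0.27 for H2-Aa, 0.16 for H2afy, 0.27 for H2-Ab1, 0.75 for Cd52 and 1.66 for Hbb-bs. Without clusters 4 and 5, chosen after the clusters were seen, they were 0.38 for Lsp1, 0.43 for Cd74, 0.33 for H2-Aa, 0.082 for H2afy, 0.13 for H2-Ab1, 0.73 for Ptprc, 0.96 for Cd52, 0.18 for Laptm5, 2.50 for Hba-a1, 1.59 for Hbb-bs and -0.56 for Acta2. In cluster 1 alone, also chosen after seeing the data, they were -0.20 for Timp2, 0.58 for Cd74, 0.51 for H2-Aa, 0.42 for H2afy, 0.20 for Sec61g, -1.099 for Nr2f2, -0.40 for Icam1, -0.20 for Lyve1, -1.52 for Ackr3, 0.48 for H2-Ab1, -1.79 for Fosb, -1.79 for Col18a1, 0.67 for Ptprc, 0.26 for Cd52, 0.69 for Laptm5 and -2.79 for Acta2. With the clusters at equal shares, another later choice, they were 0.16 for Cd74, 0.48 for H2-Aa, -0.072 for Nr2f2, 0.48 for H2-Ab1, 0.41 for Ptprc, 0.75 for Cd52, 0.26 for Laptm5, 0.091 for Fcer1g, 0.014 for Lcp1, -0.21 for Rgs5 and -0.27 for Tagln. Hba-a1 and Hbb-bs were at 4.11 and 3.66 with at most 10% mitochondrial UMIs, 4.25 and 3.77 without Scrublet doublets, and 2.60 and 1.604 without the highest cell of the gene in each library. Car4, Cxcl12, Retnla, Cldn15, Lrg1, Slco2a1, Igfbp4 and Mt2 kept their sign in every alternative that gave a value.

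With 51 and 122 cells, a gene in few cells could not be compared. No paired analysis was possible because each condition has 1 library, and leaving out a replicate was not possible for the same reason.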

Other observations

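Some gene groups not described above are given here. Over all genes tested, 7.99% were at least 1.5-fold higher in ABX and 4.76% at least 1.5-fold lower. Of 5 genes of insulin and nuclear receptor signalling, 2 were at least 1.5-fold higher in ABX (Igfbp3 and Igfbp4) and none lower. The median log2 ratio was 0.53, and the list summed to 2964 CPM in NW and 3938 CPM in ABX. Without clusters 4 and 5 its sums were 3167 and 3633 CPM. Dendritic cell genes summed to 655 and 358 CPM, and to 400 and 335 CPM without clusters 4 and 5, and neither of the 2 tested was past 1.5-fold. Of 7 genes of glucose use and hypoxia, 1, Bnip3, was higher and 1, Car4, lower, and Aldoa, Gapdh and Ldha stood at 0.40, -0.06 and -0.28 on the log2 scale. Sparc, a matrix protein of the basement membrane, was among the most abundant transcripts of the members, at 4735 CPM in NW and 4996 CPM in ABX, and Timp3, an inhibitor of matrix proteases, reached 3149 and 3749 CPM. Ly6c1 and Ly6a, surface proteins of many endothelial cells, stood at 2698 and 2173 CPM in NW and at 2982 and 2476 CPM in ABX. The immunoglobulin chain Igkc was seen in 90.2% of NW and 96.7% of ABX members. It was also seen in 97.4% and 98.6% of cells with macrophage genes, which should lack it, and its source was not tested.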
